A study of Homo sapiens with 12 samples.

Results

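The mitochondrial carrier family was examined in CAOV3 cells, an established human line of high-grade serous ovarian carcinoma. Members were the genes named SLC25A followed by a number, other than SLC25A1 and SLC25A20, together with UCP1, UCP2 and UCP3. The tables held 49 such genes among 19677, and 38 of them had a mean of at least 1 CPM (a gene's counts relative to the library total, scaled by TMM) over the 4 groups and are described here. All 38 passed the filter on low counts and were tested. SLC25A53, an orphan carrier, was just inside the limit at a mean of 1.84 CPM and SLC25A27, a UCP-like carrier, just outside it at 0.975 CPM. Each of the 4 groups had 3 libraries. Control cells received DMSO, the ascites group 10% ovarian cancer ascites with DMSO, the bezafibrate group 200 uM of the drug, and the combination group both agents. The labels give 16 hours for the treated groups and list no time for control. DMSO is named in the labels of the groups without the drug and in no label of a group with it, so a contrast of the drug includes any difference in solvent. The cells are labelled wild type. Whether the libraries of a group came from separate experiments, or the ascites from more than 1 donor, is not stated in the labels, so p values measure the spread between these libraries only.

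Mitochondrial carriers are small proteins of the inner mitochondrial membrane, built from repeats of paired membrane helices, that exchange nucleotides, phosphate, carboxylates, amino acids and cofactors between the cytosol and the matrix. The adenine nucleotide and phosphate carriers supply ATP synthase, the aspartate-glutamate and oxoglutarate carriers run the malate-aspartate shuttle, and the uncoupling proteins form a branch of the family named for the proton leak of UCP1 in brown fat. Bezafibrate is a fibrate, a class of drugs that activate PPAR receptors, which are transcription factors of fatty acid oxidation. The carnitine-acylcarnitine carrier SLC25A20, a known PPAR target outside the set described, rose from 11.5 ± 0.579 CPM in control to 25.6 ± 0.999 CPM with bezafibrate (SD, n = 3), at an edgeR adjusted p of 1.84e-13. The citrate carrier SLC25A1, also outside the set, rose from 82.4 ± 1.23 to 100.3 ± 3.56 CPM, at an edgeR adjusted p of 6.62e-05.

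Total counts per library ranged from 11831093 to 18762759. Combination replicate 3 lay at -22.4 on the second principal component, which held 9.88% of the variance, while the other 11 libraries lay between -4.37 and 9.84. That library held the lowest value of the 12 for 9 of the 38 carriers and the highest for 6, and results that change without it are given so. Epithelial keratins were high, with KRT8 at 3033 CPM on average, and MECOM was at 35.0, CDH1 at 34.9 and EPCAM at 30.2 CPM. Other genes of the same list of 11 serous epithelial markers were low or absent: PAX8 was at 0.676, WT1 at 0.0880 and MUC16 at 0.0598 CPM, and SOX17 had 0 counts. The list summed to 6192 to 6311 CPM in control, 6347 to 6513 CPM with ascites, 6442 to 6754 CPM with bezafibrate and 6907 to 7005 CPM with both, so its sum was above every control library in each treated group. In both drug contrasts KRT7, KRT19 and CDH1 were called higher by edgeR and MECOM lower, at log2 changes of -0.35 and -0.30. PAX8 was called higher without ascites. Over the 8 tested genes of the list the log2 change reached 1.52 without ascites and 1.69 with it. In ascites against control 0 of the 8 tested genes of the list were called. Of 9 blood markers 8 had 0 counts in every library, and the list's CPM came from CD68, at 70.8 to 74.8 CPM in control, 73.4 to 80.7 CPM with ascites, 87.8 to 93.0 CPM with bezafibrate and 90.3 to 98.1 CPM with both. The fibroblast list, mostly LUM, summed to 192 to 197 CPM in control, 186 to 193 CPM with ascites, 167 to 177 CPM with bezafibrate and 159 to 177 CPM with both, and 3 of its 3 tested genes were called lower in each drug contrast. The epithelial, blood and fibroblast lists moved with the drug, and the sum of the epithelial list also with ascites, and their part in the results below was not tested. Erythroid and mesothelial lists stayed under 3 CPM in sum. The adipocyte list of 5 summed to 2.39 to 3.38 CPM in control and 2.97 to 3.03 CPM with ascites. It summed to 2.65 to 3.66 CPM with bezafibrate and 2.11 to 2.97 CPM with both. Most of this was PPARGC1A, at 2.85 CPM on average, while ADIPOQ and CIDEA had 0 counts.

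Levels of the carriers were compared per length, as CPM divided by kilobases of annotated exon. This length joins the exons of all listed transcripts of a gene, and which of them the cells made was not tested. It was 6.856 kb for SLC25A3 and 1.274 kb for SLC25A5, so the order depends on it. In CPM alone SLC25A3 was the higher in control, at 603.6 against 356.3. SLC25A5, the main adenine nucleotide carrier of dividing cells, was the highest in control cells at 279.7 ± 8.06 CPM per kb (SD, n = 3). The phosphate carrier SLC25A3 came next at 88.0 ± 0.768 CPM per kb, followed by the glutathione carrier SLC25A39 at 79.1 ± 4.65 CPM per kb. As the rows are listed, the 3 libraries of each of these genes did not overlap those of the next in order. SLC25A6, another adenine nucleotide carrier, was listed at 59.1 ± 2.38 CPM per kb and overlapped the oxoglutarate carrier SLC25A11 at 53.8 ± 2.76 CPM per kb. The SLC25A6 value is uncertain, because the gene lies in the pseudoautosomal region and the tables list a second row for it with an equal count in all 12 libraries. Whether its reads were divided between the rows or 1 value was written to both was not tested. If they were divided, the sum of its rows would place it above SLC25A3 and SLC25A39. The order of these carriers therefore holds only for the rows as listed and for the exon lengths used. UCP2 followed at 43.3 ± 1.66 CPM per kb. At the other end were SLC25A21, a carrier of oxodicarboxylates, at 2.30 ± 0.253, SLC25A45 at 1.42 ± 0.106 and SLC25A53 at 0.376 ± 0.135 CPM per kb. The highest carrier was 744 times the lowest per length, a ratio that rests on the same exon lengths. On the scale of CPM, which is not corrected for length, SLC25A3, SLC25A5 and the calcium-regulated carrier SLC25A24 held 46.1% of the CPM of all members in control cells.

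**Figure D1:**
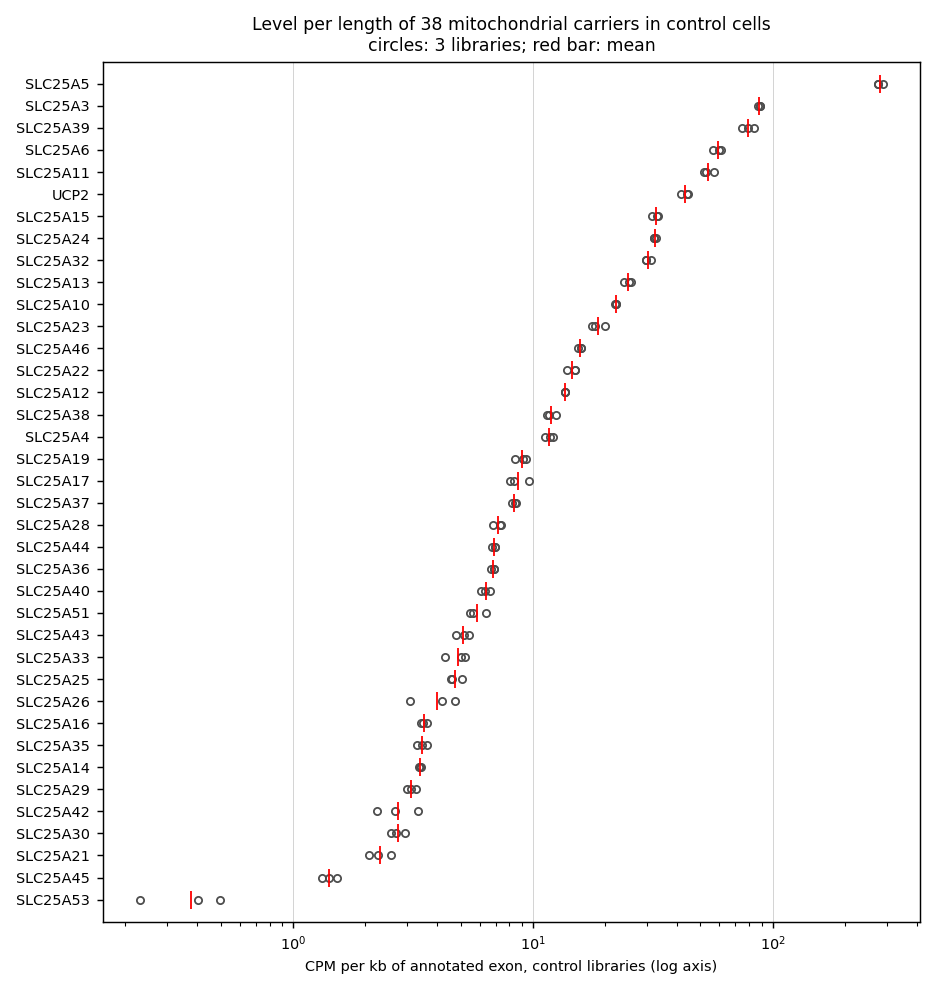
Level of the 38 carriers in the 3 control libraries, in CPM per kb of annotated exon on a log axis, ordered by mean; circles are libraries and red bars means. SLC25A5 stands above all others at 279.7 CPM per kb, and SLC25A53 is the lowest at 0.376 CPM per kb. The length joins all annotated exons of a gene, and the order depends on it.

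The other 11 members had a mean under 1 CPM. UCP1, the proton carrier of brown fat, and SLC25A47, a liver carrier, had 0 counts throughout. With 3 counts taken as the limit over the 12 libraries, this leaves room for 0.0173 CPM by counting error alone. UCP3, the muscle form, had 1 count in the control libraries together, 4 with ascites, 14 with bezafibrate and 7 with both. These counts are too few for a test, and UCP3 did not pass the filter. SLC25A31, the adenine nucleotide carrier of the testis, had 1 count in all libraries, and SLC25A2, SLC25A48 and SLC25A41 had between 2 and 4. SLC25A18, a glutamate carrier, had 22 counts, SLC25A52 had 32 and SLC25A34 had 66. SLC25A27 passed the filter with 166 counts.

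The comparison of bezafibrate with control asked which carriers differed with the drug in the absence of ascites, any difference in solvent included. With edgeR's quasi-likelihood test, 9 of the 38 carriers were called at an adjusted p under 0.05 (23.7%), against 17.6% of all 12470 genes tested. Of these 7 rose (18.4%, against 10.1% of all genes) and 2 fell (5.26%, against 7.55%). Most changes were small. The median log2 change of the 38 was 0.010 and that of all genes -0.004, while the median absolute change was 0.097 for the carriers and 0.088 for all genes. At an unadjusted p under 0.05 there were 12 carriers (31.6%, against 27.7% of all genes). In bulk RNA, a change in every cell and a change in the share of cells that express a gene cannot be told apart.

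The comparison of the combination with ascites asked the same with the fluid present, and shares no library with the first. It called 7 of the 38 carriers (18.4%, against 17.8% of all genes). Of these 4 rose (10.5%, as for all genes at 10.5%) and 3 fell (7.89%, against 7.29%). At an unadjusted p under 0.05 there were 14 (36.8%, against 28.2%). The shares of carriers called at an adjusted p were close to those of all genes. Of the 38, 6 were called in both contrasts, all 6 in the same direction: SLC25A42, UCP2, SLC25A46 and SLC25A24 rose, and SLC25A29 and SLC25A23 fell. Another 3 passed the threshold in the first contrast alone and 1 in the second alone, and the interaction called 0 of these. The sign of the change was the same in both contrasts for 31 of 38. The shares of all genes called in both contrasts, called in 1 alone or alike in sign were not counted. These counts are therefore not read as a trait of the carriers.

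**Figure D2:**
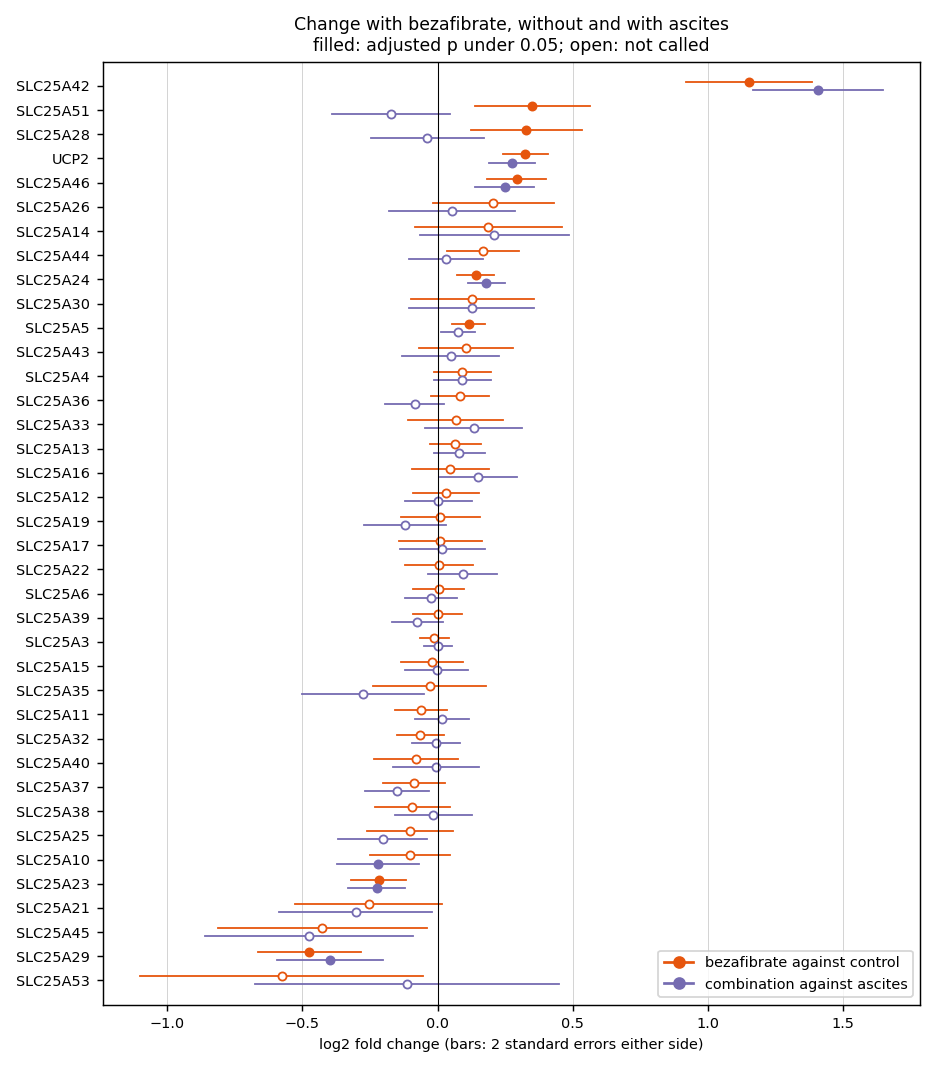
Log2 fold change of each of the 38 carriers with bezafibrate, without ascites (orange) and with it (purple); bars span 2 standard errors either side, and filled points were called at an adjusted p under 0.05. SLC25A42 stands apart at 1.15 and 1.41, and the other called carriers lie between -0.47 and 0.35.

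The coenzyme A carrier SLC25A42 showed the largest rise. SLC25A42 (ENSG00000181035.14, chromosome 19, 19063999 to 19112888, plus strand, GRCh38) brings coenzyme A into the matrix in exchange for adenine nucleotides. Its level was 7.02, 10.4 and 8.33 CPM in the control libraries and 9.33, 7.18 and 6.40 CPM with ascites. With bezafibrate it was 18.99, 18.2 and 19.9 CPM, and with both agents 21.4, 18.1 and 20.9 CPM. Every library with the drug was above every library without it. It changed by a log2 of 1.15 ± 0.116 (SE) against control (2.22-fold, edgeR adjusted p 1.52e-09). In the combination against ascites it was 1.41 ± 0.120 (SE, 2.65-fold, edgeR adjusted p 3.16e-11). The difference between these responses was 0.25 ± 0.172 (SE, edgeR adjusted p 0.999). No other described carrier changed by as much as 2-fold in either contrast.

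The stretch upstream of the RefSeq start of SLC25A42 is shown because the gene had the largest response, beside that of SLC25A29, which had the largest called fall. Sequences are from RefSeq (GRCh38.p14), 5′ to 3′ on the strand of the gene, and stop before the start site or the first exon base of any transcript in the full GENCODE release 29. They cover chr19:19063744-19063993 (plus strand) and chr14:100306548-100306694 (minus strand). Capitals mark matches on either strand to the CCAAT box, to the GC box (GGGCGG), to a string bound by ETS factors (CCGGAAGT) or to the core site of nuclear receptors (AGGTCA).
SLC25A42: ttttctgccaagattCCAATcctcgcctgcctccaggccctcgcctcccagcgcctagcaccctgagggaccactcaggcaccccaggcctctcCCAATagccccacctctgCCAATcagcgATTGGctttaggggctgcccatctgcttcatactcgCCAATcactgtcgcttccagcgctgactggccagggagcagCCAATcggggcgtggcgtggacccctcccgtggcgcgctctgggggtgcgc
SLC25A29: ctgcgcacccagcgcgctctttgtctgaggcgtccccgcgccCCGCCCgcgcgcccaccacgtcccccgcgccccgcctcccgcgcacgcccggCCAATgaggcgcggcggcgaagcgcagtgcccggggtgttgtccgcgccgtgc
The 250 bases before the SLC25A42 start held 6 CCAAT matches, 5 on the plus strand and 1 on the minus strand of the gene. At least 6 were found in 0.105% of all 35116 such windows, and the most in another described carrier was 3. The whole window of SLC25A29 held 2 CCAAT and 3 GGGCGG matches, of which 1 each lie in the stretch shown. That of SLC25A46, which also rose, held 2 matches to CCGGAAGT and is not shown because annotated exons of TMEM232, a gene on the other strand, lie in it. The table had windows for 32 of the 38 carriers. Of these, 50% held CCAAT (32% of all windows), 68.8% held GGGCGG (42.6%), 9.38% held CCGGAAGT (3.42%) and 3.12% held AGGTCA (12.1%), the core site of nuclear receptors. One exact form of the PPAR response element, a repeat of AGGTCA with 1 base between that overlaps the core site, was also searched. It was in 0 of 32 and in 6 of all windows (0.0171%). So rare a string would be absent from most sets of 32 windows, so its absence is not read as a lack of such sites. Variants of it and sites outside the window were not searched. The carriers were kept at a mean of at least 1 CPM, while all windows were taken without a filter on expression. The sets are therefore unlike, and the shares are not read as a trait of the carriers. These matches describe letters in a window and were not tested for function.

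Among the uncoupling proteins and their relatives, UCP2 rose. UCP2 (ENSG00000175567.11, chromosome 11, 73974667 to 73983307, minus strand) is a carrier of 4-carbon metabolites and protons found in many tissues. Its level was 93.3, 87.3 and 93.6 CPM in control and 90.1, 92.1 and 96.5 CPM with ascites. It was 115, 114 and 114 CPM with bezafibrate and 116, 109 and 112 CPM with both. The 6 libraries with the drug were all above the 6 without it. On the log2 scale the change was 0.32 ± 0.041 (SE) against control (edgeR adjusted p 9.38e-08) and 0.28 ± 0.042 (SE) in the combination against ascites (edgeR adjusted p 3.19e-06). SLC25A14 and SLC25A30, its relatives, were not called in either contrast, and their log2 changes lay between 0.13 and 0.21.

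In the adenine nucleotide carriers, which exchange matrix ATP for cytosolic ADP, the drug effect was small or not called. SLC25A5 stood at 368, 351 and 350.0 CPM in control and at 391, 383 and 384 CPM with bezafibrate, without overlap. This was a log2 change of 0.12 ± 0.030 (SE, edgeR adjusted p 0.0053). With ascites alone it stood at 354, 366 and 367 CPM and with both agents at 394, 375 and 375 CPM, a log2 change of 0.07 ± 0.031 (SE, edgeR adjusted p 0.0926). Without combination replicate 3 that adjusted p was 0.0365. SLC25A4, the form of heart and muscle, was at 49.8, 52.5 and 53.7 CPM in control, 57.0, 51.8 and 53.1 CPM with ascites, 56.2, 55.8 and 53.9 CPM with bezafibrate, and 56.8, 60.5 and 55.5 CPM with both. It was not called: the drug change was 0.09 ± 0.052 without ascites (SE, log2, edgeR adjusted p 0.263) and 0.09 ± 0.053 with it (0.267). SLC25A6 was at 126, 116 and 123 CPM in control, 122, 128 and 124 CPM with ascites, 118, 121 and 128 CPM with bezafibrate, and 127, 129 and 111 CPM with both, and all groups overlapped. Its log2 change with the drug was 0.003, with 2 SE spanning -0.090 to 0.097. The phosphate carrier SLC25A3 was at 608, 598 and 604 CPM in control and 600.2, 589 and 606 CPM with bezafibrate, and at 614, 613 and 611 CPM with ascites and 613, 606 and 619.7 CPM with both, so the drug groups overlapped those without it. Its log2 change was -0.012 with 2 SE spanning -0.065 to 0.040, the narrowest interval of the 38 carriers.

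The calcium-regulated carriers, which load the matrix with ATP-Mg in exchange for phosphate, moved in opposite directions. SLC25A24 (chromosome 1, 108134036 to 108200849, minus strand) was at 209.8, 210.3 and 214 CPM in control, 208, 208 and 210.5 CPM with ascites, 237, 233 and 229 CPM with bezafibrate, and 224, 247 and 240.0 CPM with both. Every library with the drug was above every library without it. It rose by a log2 change of 0.14 ± 0.034 (SE, edgeR adjusted p 0.0023) without ascites and 0.18 ± 0.035 (SE, edgeR adjusted p 0.00014) with it. SLC25A23 (chromosome 19, 6436079 to 6465203, minus strand) was at 62.0, 64.1 and 70.5 CPM in control and 64.7, 65.2 and 65.6 CPM with ascites. It was at 56.4, 57.8 and 54.3 CPM with bezafibrate and 58.2, 54.6 and 53.9 CPM with both. All libraries with the drug were below those without it. The log2 change was -0.22 ± 0.051 (SE, edgeR adjusted p 0.0015) without ascites and -0.23 ± 0.052 (SE, edgeR adjusted p 0.0014) with it. SLC25A25, the remaining described member of this group, had log2 changes of -0.10 and -0.20 and was not called. An annotated antisense gene overlaps exons of SLC25A24 on the other strand, and the strand setting of the counts is not given in the sources used here.

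**Figure D3:**
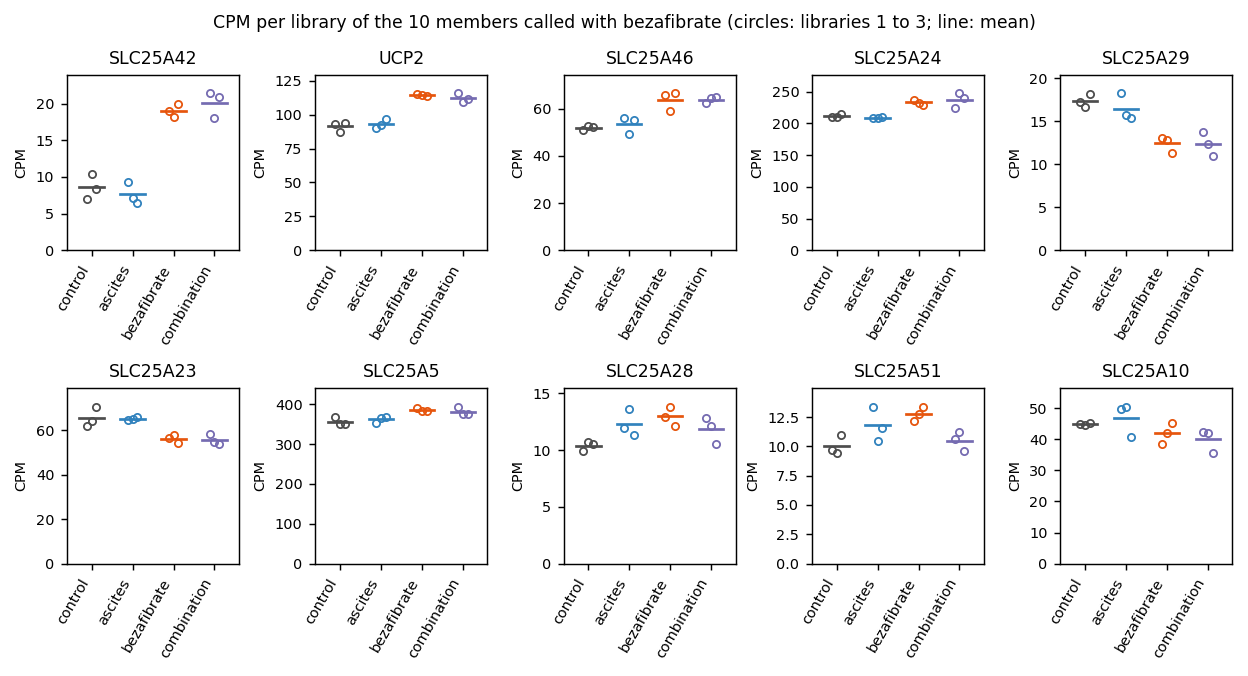
CPM in each of the 12 libraries for the 10 carriers called in at least 1 drug contrast; circles are libraries 1 to 3 of each group, lines are means, and every axis starts at 0. SLC25A42 goes from 8.57 CPM in control to 19.03 CPM with bezafibrate, while the other panels show shifts of smaller proportion.

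Among carriers of amino acids, SLC25A29 fell. SLC25A29 (ENSG00000197119.13, chromosome 14, 100291111 to 100306547, minus strand) carries basic amino acids such as arginine and lysine. It was at 17.2, 16.6 and 18.2 CPM in control and 18.2, 15.7 and 15.4 CPM with ascites. The values were 13.1, 12.9 and 11.3 CPM with bezafibrate and 13.7, 12.4 and 10.98 CPM with both. No library with the drug reached the lowest library without it. It changed by a log2 of -0.47 ± 0.095 (SE, edgeR adjusted p 0.00022) without ascites and -0.40 ± 0.099 (SE, edgeR adjusted p 0.0029) with it. The other 5 described carriers of this group were not called. They included the ornithine carrier SLC25A15 at -0.02 and 0.00, without and with ascites. SLC25A45 was at -0.43 ± 0.194 (SE, edgeR adjusted p 0.139) without ascites and -0.48 ± 0.192 (SE, edgeR adjusted p 0.085) with it. In each contrast its libraries with the drug were below those without it, so a fall like that of SLC25A29 is not excluded. Noncoding genes overlap SLC25A29 on both strands in the annotation, so its reads may not all be its own.

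The aspartate and glutamate carriers SLC25A12, SLC25A13 and SLC25A22 had log2 changes between 0.00 and 0.09 in both drug contrasts, and 0 of 3 were called. SLC25A12 and SLC25A13 are the aspartate-glutamate carriers, and SLC25A22 brings glutamate in with a proton. The oxoglutarate carrier SLC25A11, which works with SLC25A12 and SLC25A13 in the malate-aspartate shuttle, was at -0.06 and 0.02. The dicarboxylate carrier SLC25A10 was called lower only in the combination against ascites. It was at 44.9, 44.7 and 45.1 CPM in control, 49.6, 50.5 and 40.7 CPM with ascites, 38.5, 41.97 and 45.2 CPM with bezafibrate, and 42.3, 41.9 and 35.6 CPM with both, so the last group overlapped the ascites group. The log2 change there was -0.22 ± 0.076 (SE, edgeR adjusted p 0.0442), and the call was lost in 5 of 13 alternatives. Without combination replicate 3 it was -0.15 (edgeR adjusted p 0.157), without ascites replicate 1 it was -0.18 (edgeR adjusted p 0.195) and without ascites replicate 2 it was -0.17 (edgeR adjusted p 0.202). A read-through gene that shares its sequence had 7 counts in ascites replicate 3 and 0 elsewhere.

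There were 8 described carriers of cofactors and nucleotides, and SLC25A51 joined SLC25A42 among those called. SLC25A51, the carrier of NAD, was at 9.68, 9.40 and 10.9 CPM in control, 13.4, 10.5 and 11.6 CPM with ascites, 12.2, 12.8 and 13.3 CPM with bezafibrate, and 10.6, 11.2 and 9.62 CPM with both. It was thus higher with the drug alone than in control without overlap, and the group given both agents overlapped control. On the log2 scale the change was 0.35 ± 0.106 against control (SE, edgeR adjusted p 0.0156) and -0.17 ± 0.109 in the combination against ascites (SE, edgeR adjusted p 0.317). The interaction, the difference of these values, was -0.52 ± 0.152 (SE), at an unadjusted p of 0.00145 that did not pass adjustment (edgeR adjusted p 0.999). Its call against control was lost in 4 of 13 alternatives: with DESeq2 (adjusted p 0.0798), without control replicate 1 (edgeR adjusted p 0.0683), without control replicate 2 (0.0842) and without bezafibrate replicate 3 (0.0596). SLC25A51 shares 15.6% of its 50-base windows with other genes, 10.2% with SLC25A52, its near copy. A gene annotated as protein-coding also overlaps it on the same strand, so its value is uncertain. Over the 12 libraries SLC25A52 had 32 counts and SLC25A51 had 1962. The other 6, among them the folate carrier SLC25A32, the peroxisomal carrier SLC25A17 and the pyrimidine nucleotide carriers SLC25A33 and SLC25A36, were not called.

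Of the carriers of iron and glutathione, SLC25A28, the mitoferrin of tissues outside the red cell lineage, was called higher with bezafibrate against control. It was at 9.89, 10.7 and 10.5 CPM in control, 11.96, 13.6 and 11.3 CPM with ascites, 12.96, 13.8 and 12.2 CPM with bezafibrate, and 12.8, 12.1 and 10.6 CPM with both. The control libraries were below all others but for the last, which at 10.6 CPM lay among them. The log2 change was 0.33 ± 0.103 (SE, edgeR adjusted p 0.0209) against control and -0.04 ± 0.104 (SE, edgeR adjusted p 0.864) in the combination against ascites. The call was lost with DESeq2 (adjusted p 0.103), without control replicate 1 (edgeR adjusted p 0.0998) and without bezafibrate replicate 2 (0.118). SLC25A37, the mitoferrin of red cell precursors, and the glutathione carriers SLC25A39 and SLC25A40 were not called.

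SLC25A46, an outer membrane protein of the family that acts in mitochondrial fission and fusion, rose in both contrasts. SLC25A46 (ENSG00000164209.17, chromosome 5, 110738136 to 110765161, plus strand) was at 51.2, 52.6 and 52.4 CPM in control and 56.3, 49.4 and 55.2 CPM with ascites. With bezafibrate it was at 65.8, 59.2 and 66.6 CPM, and with both at 62.3, 64.5 and 65.0 CPM. The 6 libraries with the drug were above all 6 without it. It changed by a log2 of 0.29 ± 0.054 (SE, edgeR adjusted p 7.21e-05) without ascites and 0.25 ± 0.055 (SE, edgeR adjusted p 0.00081) with it. The orphan carriers SLC25A35, SLC25A43 and SLC25A53 were not called.

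The CPM of all 49 members together ranged from 2505 to 2568 in control, 2562 to 2586 with ascites, 2617 to 2637 with bezafibrate and 2603 to 2653 with both. Every library with the drug was above every library without it, and SLC25A5, UCP2 and SLC25A24 had the largest gains in CPM. Of the 29 carriers not called with bezafibrate against control, the log2 change ran from -0.58 for SLC25A53 to 0.21 for SLC25A26, the carrier of S-adenosylmethionine. The median SE of these was 0.071. In the contrast without ascites the groups did not overlap for 11 carriers that were higher (28.9%, against 17.2% of all genes) and 6 that were lower (15.8%, against 16.3%). In the contrast with ascites this held for 7 higher (18.4%, against 16%) and 7 lower (18.4%, against 14.5%).

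The comparison of ascites with control asked whether the fluid changed the carriers. None was called with edgeR's quasi-likelihood test (0 of 38, against 0.0882% of all genes), none with DESeq2, and 2 had an unadjusted p under 0.05 (5.26%, against 6.01% of all genes). These were SLC25A28 at 0.24 ± 0.107 (SE, edgeR adjusted p 0.806) and SLC25A51 at 0.24 ± 0.110 (SE, edgeR adjusted p 0.806). The log2 changes of the 38 ran from -0.36 for SLC25A53 to 0.24 for SLC25A51, with a median of 0.028. Groups did not overlap for 4 carriers that were higher (10.5%, against 5.64% of all genes), which were SLC25A3, SLC25A14, SLC25A28 and SLC25A36, and for 0 that were lower (7.06% of all genes). For abundant carriers the intervals were narrow: that of SLC25A3 spanned -0.031 to 0.074, that of SLC25A5 -0.038 to 0.085 and that of UCP2 -0.062 to 0.111.

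Ascites was also compared within drug-treated cells, as the combination against bezafibrate. Again 0 of 38 carriers were called by edgeR (0.128% of all genes were) and 0 by DESeq2, and 3 had an unadjusted p under 0.05 (7.89%, against 4.79% of all genes). They were SLC25A51 at -0.28 (SE 0.105), SLC25A35 at -0.27 (SE 0.109) and SLC25A16 at 0.17 (SE 0.069), with edgeR adjusted p values of 0.815, 0.828 and 0.828. Groups did not overlap for 2 that were higher (5.26%, against 4.44%), SLC25A3 and SLC25A16, and 2 that were lower (5.26%, against 4.83%), SLC25A26 and SLC25A51. The interaction of the agents was called for 0 of 38 carriers (0% of all genes) by edgeR and 0 by DESeq2. An unadjusted p under 0.05 was found for 3 carriers (7.89%, against 3.57%), which were SLC25A51, SLC25A28 at -0.37 and SLC25A36 at -0.17.

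**Figure D4:**
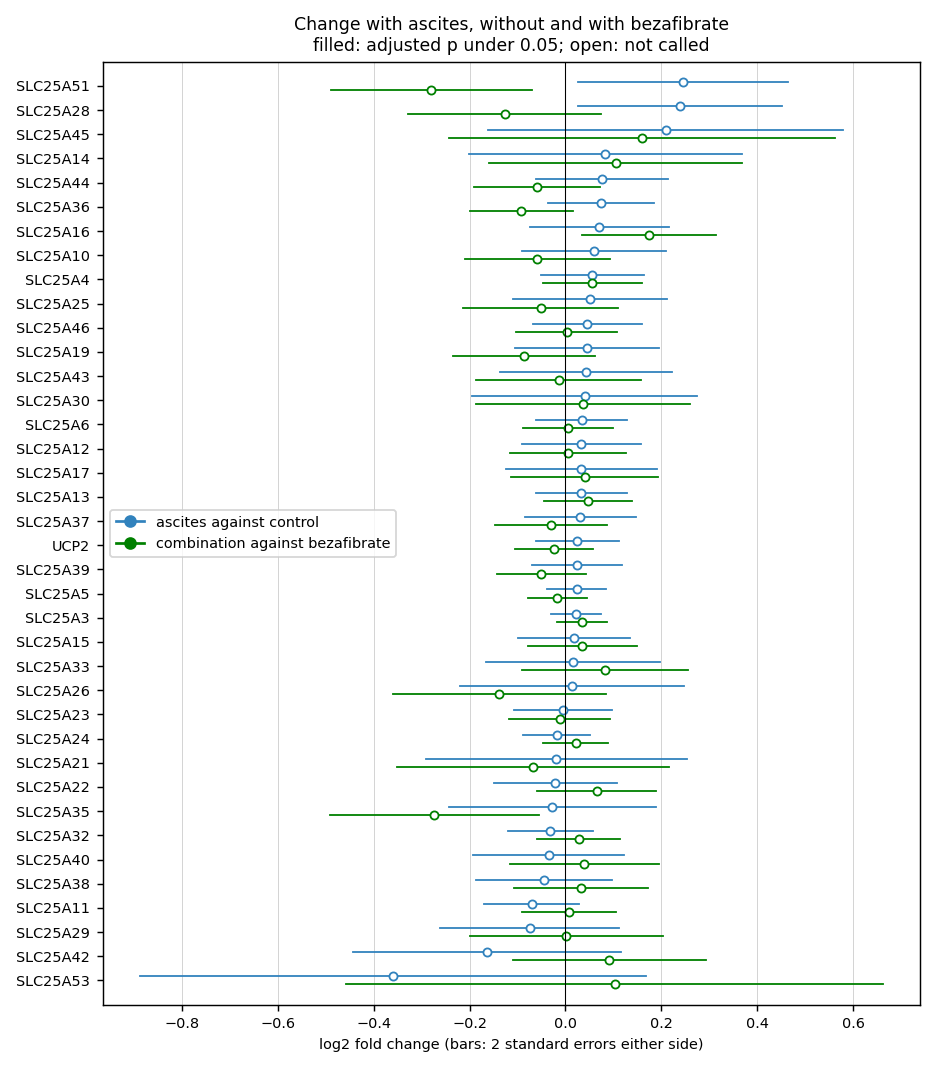
Log2 fold change of each of the 38 carriers with ascites, without bezafibrate (blue) and with it (green); bars span 2 standard errors either side. No point is filled, since 0 of 38 carriers were called in either contrast, and most values lie close to 0.

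Genes that work with the carriers were read from lists. Their counts stand beside the shares of all genes called, which were 10.1% higher and 7.55% lower in bezafibrate against control, and 10.5% and 7.29% in the combination against ascites. Of 16 genes of the import route of carriers through the TOM and TIM22 complexes, bezafibrate against control called 0 higher and 1 lower, TIMM8A at -0.21, and the combination against ascites called 1 higher, TOMM70 at 0.12, and 0 lower. In a list of 21 other transporters of the inner membrane, 2 were called higher and 1 lower in each drug contrast. MPV17L rose in both, by 0.43 and 0.46, while MCUB at 0.26 and SFXN2 at -0.39 were called without ascites, and MPC2, a subunit of the pyruvate carrier, at 0.20 and SFXN1 at -0.10 with it. Of 10 shuttle enzymes 2 rose in each contrast and 0 fell. GOT1, the cytosolic aspartate aminotransferase of the malate-aspartate shuttle, rose by 0.29 and 0.32, and GPD2, the mitochondrial enzyme of the glycerol phosphate shuttle, by 0.18 and 0.17. Of 4 outer membrane channels tested, VDAC1 was called with ascites present, at 0.10. Of these lists, 0 genes were called in the contrasts of ascites. The PPAR targets PDK4, ANGPTL4, CPT1A and PLIN2 were called higher in both drug contrasts, by log2 changes between 0.97 and 4.07. These 4 genes were chosen with earlier results of these data known, so they are no independent check of the drug.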

How the data were processed

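RNA was sequenced from 12 libraries of CAOV3 cells, 3 in each of 4 groups that the labels give. For every library the authors deposited expected counts of 19677 genes, as whole numbers. The submitters' processing notes name Trimmomatic 0.39, STAR 2.7.9a, RSEM 1.3.3, DESeq2 1.28.1 and GRCh38, with no role or order; annotation and strand setting are not given in the sources used here. The tables list 14 pseudoautosomal genes with a count on 2 rows each, equal in every library. Whether reads were divided between these rows or 1 value was written to both was not tested. Expected counts were used as deposited, with no rounding needed.

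Genes were kept by filterByExpr (minimum count 10, minimum total 15), which left 12470, and scaled by TMM in edgeR 4.0.16 (R 4.3.3). The quasi-likelihood F test used 1 mean per group over all 12 libraries with 8 residual degrees of freedom. P values were adjusted by Benjamini-Hochberg over all genes tested, and called under 0.05. The SE was derived from the log2 change and its F statistic. The test was tried on simulated data. Exon lengths, positions and shared 50-base windows came from the basic set of GENCODE release 29 (GRCh38), in which all 49 identifiers matched without version; the authors' annotation may differ, which bears on levels per kb. At total counts of 11831093 to 18762759, counting error is small for the abundant carriers and grows as counts fall. In bezafibrate against control the SE of the log2 change was 0.026 for SLC25A3. It was 0.103 for SLC25A28, at a mean of 11.9 CPM, and 0.262 for SLC25A53. Alternatives were RLE and upper-quartile scaling, no filter, DESeq2 1.42.0, only the groups compared, a replicate block, each library left out, and pseudoautosomal rows summed, the last chosen after the data were seen.

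By the rule for named genes, every library's value is given for carriers called in both drug contrasts (at most 14), for any called in an ascites contrast or the interaction, and for UCP2 and the adenine nucleotide and phosphate carriers. The values of the other called carriers were added after they were seen. The members and lists were chosen with earlier results of these data known.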

Additional observations from a re-analysis of the deposited data

How the results depend on the processing

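The number of carriers called changed little. In the drug contrasts it is given without the share of all genes called under the same alternative. For bezafibrate against control it was 9 as reported, 7 with DESeq2 and between 8 and 9 without 1 library. For the combination against ascites it was 7 as reported, 6 with DESeq2, 8 under upper-quartile scaling, 6 when only these groups were fitted, and between 6 and 9 without 1 library. In the ascites contrasts and the interaction it was 0 in every alternative run, leaving out 1 library included. Over all genes, 11 were called for ascites against control, but 59 with no filter, 33 when only these groups were fitted and 3 to 5 without 1 library. For the combination against bezafibrate 16 were called, but 52 with no filter, 7 with only these groups and 9 to 28 without 1 library, the most without combination replicate 3. For the interaction 0 were called, but 36 with no filter, 1 with the replicate block and 3 without combination replicate 1. The cause was not tested. The 13 genes followed were the carriers called in a drug contrast, with SLC25A3, SLC25A4 and SLC25A6. In both drug contrasts they gave 26 results and 338 values under alternatives. Of these, 325 kept their side of the threshold, 8 lost a call without 1 library, 4 lost one elsewhere, 1 gained one and 0 reversed. Calls gained by carriers not among the 13 are not in this tally. The 6 carriers called in both contrasts kept every call. The calls lost were those of SLC25A28, SLC25A51 and SLC25A10. With the replicate block the counts were 9 and 7, as without it, and 0 in the other contrasts. Same-numbered libraries of different groups did not deviate together (18 correlations from -0.135 to 0.0613, against 36 from -0.0709 to 0.179 for different numbers). Of 12 libraries, 0 correlated best with their own number in all other groups. No pairing by number was seen, which does not exclude one. Carriers near 1 CPM are limited by depth: the SE of SLC25A53 was 0.262 against 0.026 for SLC25A3.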
